A study of Mus musculus with 10 samples.

Results

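Interferons are secreted proteins that put cells into an antiviral state, and the 37 genes described here belong to that response or to the presentation of antigen on major histocompatibility complex (MHC) class I. They were taken by name from the deposited gene table, where all 37 were found among 52550 genes. RNA was sequenced from mouse embryonic fibroblasts, that is, cultured connective tissue cells, in 5 male and 5 female libraries. Both sexes were of the C57BL/6 strain, taken at embryonic day 14 and listed at passage 3, with no agent or genetic change given for either, and the study compared the sexes. Whether libraries of the same sex derive from different embryos or cultures is not stated in the labels. P-values therefore reflect only how far these samples spread, and that spread could be technical.

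Cells detect foreign nucleic acid with sensors that act through transcription factors of the IRF family to switch on interferon genes. Secreted interferon binds its receptor, kinases of the JAK family phosphorylate STAT proteins, and a complex that holds STAT2 and IRF9 binds a DNA element, the interferon-stimulated response element (ISRE), in front of many induced genes. Many sensors and several of these transcription factors are induced by interferon themselves, and fibroblasts are a classic cell type in which the response was studied.

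The members were grouped by role. The 9 sensing and signalling genes were 4 sensors and 5 transcription factors. The 23 induced genes were 4 IFIT genes, 5 OAS genes, 3 guanylate-binding proteins and 11 other antiviral genes, and 5 genes acted in antigen presentation. A library held between 30662616 and 45859721 reads placed uniquely on genes, and introns took between 22.5% and 28.6% of them. All 9 fibroblast markers were present, with a summed level of 22466 to 29793 CPM (counts-per-million of unique gene reads). Markers of other cells were far lower: the sums were 63.2 to 148.8 CPM for 17 macrophage genes, 91.2 to 161.6 CPM for endothelial genes, 63.1 to 123.7 CPM for epithelial genes and 1.16 to 2.48 CPM for lymphocyte and dendritic cell genes, each of which was under 1 CPM on average. In bulk RNA, fewer cells of a type and less RNA per cell cannot be told apart.

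The sequence around the start of these genes was examined for 2 elements of the interferon response. RefSeq promoters of GRCm38.p6, each spanning 250 bases before to 50 bases after the start of a gene, were matched by symbol for 29 of the 37 members. The core letters of the ISRE, GAAANNGAAA on either strand, lay in 15 of these 29 genes (51.7%), against 3.99% of all 27025 genes with a promoter entry. By group, the letters lay in 11 of 17 induced genes, in 3 of 8 sensing and signalling genes (Ifih1, Ddx58 and Stat2) and in 1 of 4 antigen presentation genes (B2m). The letters of the interferon gamma activation site (GAS), TTCNNNGAA, lay in 6 of the 29 genes (20.7%), namely Bst2, Gbp7, Ifi35, Ifit2, Irf1 and Oas1a, against 9.55% of all genes. In Bst2 a match to each motif overlapped. The matches in Ifih1, Ddx58 and Ifi35 began after the start of the gene, and all others before it. A match describes letters in a window and does not show a bound site, and a window without a match says nothing on the factor.

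Windows of 200 bases before the start, written 5′ to 3′ on the strand of the gene, are shown for 6 members, with each match to the ISRE core in capitals. Isg15 (chr4:156200819-156201018, minus strand) has the most matches, 3 that overlap and begin 78, 72 and 66 bases before the start. Ifit1 (chr19:34640689-34640888, plus strand), Ifit3 (chr19:34583329-34583528, plus strand) and Ifit3b (chr19:34607757-34607956, plus strand) each have 2 on the opposite strand, and B2m (chr2:122147487-122147686, plus strand) has 1. Irf3 (chr7:44997448-44997647, plus strand) has none and is shown as the transcription factor with the highest level.
Isg15: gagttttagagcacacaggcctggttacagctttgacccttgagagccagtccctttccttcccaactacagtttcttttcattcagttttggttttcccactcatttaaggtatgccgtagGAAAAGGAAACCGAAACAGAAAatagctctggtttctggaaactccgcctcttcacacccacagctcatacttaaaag
Ifit1: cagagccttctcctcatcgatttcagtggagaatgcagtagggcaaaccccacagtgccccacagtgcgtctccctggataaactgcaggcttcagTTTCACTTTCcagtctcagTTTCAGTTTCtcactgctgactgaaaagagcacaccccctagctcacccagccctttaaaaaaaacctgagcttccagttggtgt
Ifit3: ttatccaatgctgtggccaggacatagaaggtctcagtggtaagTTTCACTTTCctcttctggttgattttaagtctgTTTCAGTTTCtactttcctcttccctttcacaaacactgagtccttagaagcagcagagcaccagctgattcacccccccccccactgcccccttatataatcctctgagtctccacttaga
Ifit3b: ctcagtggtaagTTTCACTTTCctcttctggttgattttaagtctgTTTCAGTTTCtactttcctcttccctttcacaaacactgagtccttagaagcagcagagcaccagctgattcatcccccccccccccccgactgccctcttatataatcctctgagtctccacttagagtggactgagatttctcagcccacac
B2m: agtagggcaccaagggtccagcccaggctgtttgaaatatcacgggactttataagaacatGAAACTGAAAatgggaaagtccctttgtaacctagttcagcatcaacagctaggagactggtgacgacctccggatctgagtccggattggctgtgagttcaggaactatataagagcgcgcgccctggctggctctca
Irf3: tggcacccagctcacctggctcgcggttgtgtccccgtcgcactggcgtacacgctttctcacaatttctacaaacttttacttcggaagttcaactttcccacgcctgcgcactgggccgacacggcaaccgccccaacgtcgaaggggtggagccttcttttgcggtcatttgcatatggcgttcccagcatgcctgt
Ifit3 and Ifit3b are neighbouring copies on chromosome 19: of 218 aligned bases before their starts, 216 were identical (99.1%). Reads from such copies are hard to assign, and of the total gene reads only 61.9% for Ifit3 and 63.9% for Ifit3b were placed uniquely, so the values of both are uncertain.

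Baseline levels differed by group. To compare genes, unique exon reads were expressed per kilobase of exon and per library total of unique exon reads (RPKM, as mean ± SD over 10 libraries). RPKM share the multiplier of CPM but count exon reads only, and their library scaling differs. Values in RPKM and in CPM are therefore not on the same scale. The median level was 7.04 RPKM for antigen presentation, 2.97 RPKM for sensing and signalling and 0.355 RPKM for the induced genes, against 2.91 RPKM for all 16602 genes with enough reads to test. Within sensing and signalling the level ran from 0.0914 RPKM for Zbp1, above 16.6% of tested genes, to 8.38 RPKM for Irf3, above 69.8%. Of the induced genes, 3 were above the median of all tested genes: Bst2 at 8.91 ± 2.81 RPKM, Ifit2 at 6.78 ± 0.521 RPKM and Ifi35 at 5.67 ± 0.605 RPKM. Oas1a, Oas2 and Mx1 had at most 16, 10 and 4 reads in any library and were not tested.

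**Figure D1:**
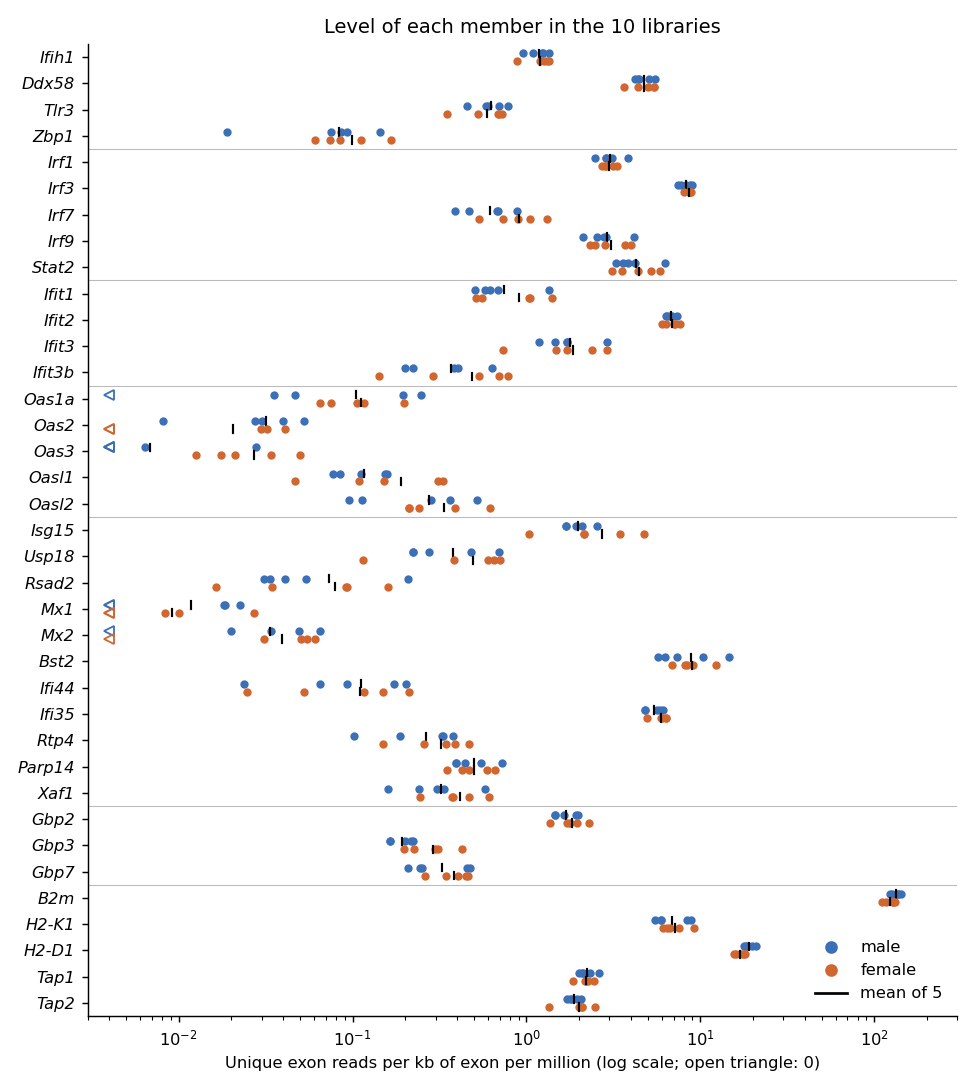
Level of each of the 37 members in RPKM on a log axis, with 1 point for each of the 5 male and 5 female libraries, a bar at each mean of 5 and open triangles for libraries at 0. The members run from 0.010 RPKM for Mx1 to 127.9 RPKM for B2m, and the points of the sexes lie over each other.

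Antigen presentation was the most abundant group. B2m (chr2:122147686-122153083), the invariant light chain of MHC class I, was at 85.2, 88.5, 78.2, 83.8 and 86.3 CPM in male libraries 1 to 5 and 81.8, 87.1, 75.7, 74.8 and 70.1 CPM in female libraries 1 to 5. The highest library was male 2 and the lowest female 5, with overlap between the sexes. Its level of 127.9 ± 9.81 RPKM was above 98.5% of tested genes, and only 51.8% of its total reads were unique. H2-D1 (chr17:35262730-35267499), a class I heavy chain, was at 36.0, 37.2, 34.9, 37.2 and 40.1 CPM in the males and 34.6, 37.0, 28.9, 34.2 and 30.0 CPM in the females. Of the 5 females 4 were below the lowest male, and female library 2 lay within the male range, so the sexes overlapped. In each of the 5 pairs of the same replicate number the female was lower, for H2-D1 and also for B2m. No other member had the same sign in all 5 pairs, and these 2 of 34 (5.88%) compare with 8.25% of all tested genes. H2-K1 (chr17:33996017-34000333), the other classical heavy chain here, was at 15.3, 11.8, 10.4, 12.3 and 17.1 CPM in the males and 14.8, 18.5, 11.0, 12.8 and 13.2 CPM in the females. Female library 2 was highest and male library 3 lowest for H2-K1. Class I genes resemble each other closely, which can split reads between them. Of the total gene reads, 94.5% for H2-K1 and 94.3% for H2-D1 were placed uniquely. Tap1 and Tap2, the subunits of the transporter that delivers peptides to class I, were at 2.20 ± 0.216 RPKM and 1.93 ± 0.298 RPKM.

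Among the sensors, Ddx58 (chr4:40203773-40239828) encodes RIG-I, a cytoplasmic helicase that binds viral RNA, and was at 31.4, 26.4, 25.2, 31.4 and 26.2 CPM in the males and 32.1, 33.2, 25.0, 29.6 and 21.4 CPM in the females. It was the most abundant sensor, at 4.74 ± 0.616 RPKM, and lowest in female library 5. Zbp1 (chr2:173206612-173218923), a sensor of left-handed nucleic acid, was at 0.341, 0.176, 0.256, 0.608 and 0.294 CPM in the males and 0.542, 0.334, 0.421, 0.506 and 0.393 CPM in the females, from 7 to 21 reads per library. Its lowest and its highest library were both male. Ifih1, the RNA sensor MDA5, and Tlr3, an endosomal receptor for double-stranded RNA, were at 1.19 ± 0.158 RPKM and 0.610 ± 0.133 RPKM.

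Of the transcription factors, Irf3 was the most abundant and most even, Irf7, Stat2 and Irf9 varied most between libraries, and Irf1 lay between. Irf3 (chr7:44997648-45002848), the constitutive factor that sensors activate first, was at 18.9, 19.0, 19.8, 23.7 and 21.2 CPM in the males and 20.1, 22.4, 20.3, 21.6 and 22.1 CPM in the females. Its highest library was 1.25 times its lowest, at a level of 8.38 ± 0.516 RPKM. Irf7 (chr7:141262706-141266481), which is induced by interferon and amplifies the response, was at 2.16, 1.88, 1.09, 1.04 and 1.77 CPM in the males and 3.31, 2.52, 1.62, 2.42 and 1.31 CPM in the females. Its level was 0.761 ± 0.281 RPKM, and its highest library, female 1, was 3.17 times its lowest, male 4. Stat2 and Irf9, partners in the complex that binds the ISRE, were at 4.32 ± 1.10 RPKM and 2.97 ± 0.716 RPKM, and Irf1, a factor induced mainly by interferon gamma, was at 3.01 ± 0.373 RPKM.

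The IFIT proteins bind foreign RNA and block its translation. Ifit2 (chr19:34550694-34576419) was at 26.5, 23.5, 24.2, 23.3 and 24.8 CPM in the males and 25.3, 27.8, 24.9, 22.4 and 21.9 CPM in the females. It varied by 1.27 times between its highest and lowest library and was the most abundant and most even of the family. Ifit1 (chr19:34640871-34650009), which has the 2 matches shown above, was at 2.70, 1.25, 1.44, 1.65 and 1.37 CPM in the males and 2.14, 3.08, 1.26, 2.25 and 1.28 CPM in the females. Male library 1 and female libraries 1, 2 and 4 were the 4 highest, and the sexes overlapped. Ifit3b (chr19:34607970-34613401) was at 0.967, 0.627, 0.320, 0.608 and 0.638 CPM in the males and 0.840, 1.23, 0.463, 1.07 and 0.262 CPM in the females, and Ifit3 was at 1.82 ± 0.708 RPKM with the same libraries highest and lowest (female 2 and female 5).

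The OAS genes encode synthetases, or relatives without that activity, of the messenger that activates RNase L. Oasl2 (chr5:114896936-114912234) was at 1.56, 1.13, 0.448, 0.927 and 0.343 CPM in the males and 1.36, 2.08, 0.758, 0.927 and 0.760 CPM in the females. Oasl1 (chr5:114923240-114937915) was at 0.398, 0.326, 0.192, 0.232 and 0.172 CPM in the males and 0.759, 0.360, 0.189, 0.815 and 0.262 CPM in the females, with female libraries 1 and 4 highest. Both were low, at 0.304 ± 0.168 RPKM and 0.153 ± 0.0948 RPKM. Oas3 was lower still per length, at 0.0170 ± 0.0167 RPKM, and 89.6% of its unique gene reads lay in introns, so its CPM is mostly intron signal.

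The other induced genes ran from 0.010 RPKM for Mx1 to 8.91 RPKM for Bst2. Bst2 (chr8:71534255-71537456), which encodes tetherin, a protein that holds budding viruses at the cell surface, was at 6.74, 4.49, 4.90, 4.60 and 10.4 CPM in the males and 5.64, 9.09, 4.50, 6.38 and 5.58 CPM in the females. Male library 5 and female library 2 stood highest. Isg15 (chr4:156199424-156200818), a ubiquitin-like modifier whose promoter holds the 3 overlapping matches, was at 1.39, 1.00, 0.993, 1.16 and 1.15 CPM in the males and 2.66, 2.03, 1.16, 1.21 and 0.577 CPM in the females. Its female values held both the highest and the lowest of the 10, with the males between. Mx2 (chr16:97535308-97560900), a gene of the dynamin-like GTPase family, was at 0.313, 0.351, 0.224, 0.232 and 0.196 CPM in the males and 0.515, 0.719, 0.400, 0.309 and 0 CPM in the females. Female library 5 had no Mx2 read, which allows up to 0.0786 CPM there (3 reads, counting error only), and 70.4% of the reads of Mx2 lay in introns. For Rtp4 the intron share was 80.1%. Usp18, the protease that removes ISG15 and damps receptor signalling, had 38.6% unique reads, and its level of 0.435 ± 0.221 RPKM is therefore uncertain.

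The guanylate-binding proteins are GTPases that attack the compartments of intracellular pathogens. Gbp2 (chr3:142620602-142638008) was at 2.65, 2.86, 3.75, 3.53 and 3.93 CPM in the males and 3.77, 3.44, 3.18, 4.58 and 2.83 CPM in the females. Its level of 1.75 ± 0.288 RPKM was the highest of the 3, and it was evenly spread over the sexes. Gbp3 (chr3:142560026-142573209) was at 0.683, 0.502, 0.545, 0.724 and 0.491 CPM in the males and 0.542, 1.13, 0.673, 0.758 and 0.472 CPM in the females, and female library 2 stood above the other 9. Gbp7 (chr3:142530342-142550149) was at 2.08, 0.878, 1.19, 2.26 and 1.23 CPM in the males and 1.90, 2.23, 1.45, 1.77 and 1.18 CPM in the females. It shares 11.4% of its exon bases with a pseudogene on the same strand. In GENCODE M21, 14 members share exon bases with another gene, 10 of them with a gene on the opposite strand only, and whether the counting used strand is not given in the sources used here.

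No member passed the test between the sexes. With edgeR's quasi-likelihood test and Benjamini-Hochberg adjustment over all tested genes, 0 of the 34 tested members passed an adjusted p of 0.05, against 15 genes or 0.0904% of all tested genes (43 genes, still with 0 members, when the replicate number was added as a block). At an unadjusted p under 0.05 there was 1 member (2.94%), against 5.55% of all tested genes, and DESeq2 called 0 members. In no member did the values of the sexes fail to overlap, which they did in 0.976% of all tested genes. The authors' deposited table likewise gave 0 of the 37 members a false discovery rate under 0.05, against 82 genes in all.

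H2-D1 was the member with the smallest p, at a log2 fold change (female minus male) of -0.17 ± 0.07 (SE, n = 5 per sex; edgeR adjusted p = 0.846). The largest log2 fold change was that of Oasl1, 0.82 ± 0.43 (edgeR adjusted p = 0.946), and that of Irf7 was 0.48 ± 0.27 (edgeR adjusted p = 0.965). At the other end stood Rtp4, a chaperone of receptor proteins, at -0.22 ± 0.19. That value rests on gene reads of which 80.1% lay in introns. The exon level of Rtp4 went the other way, with means of 0.265 RPKM in males and 0.321 RPKM in females. None of the 4 passed the test, which does not show that the sexes are alike in them.

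Signs of the fold changes leaned toward females. The median log2 fold change of the 34 members was 0.09, with 27 above 0 (79.4%), against 0.00 and 52.1% for all tested genes. It was 0.18 for induced genes (17 of 20 above 0), 0.05 for sensing and signalling genes (8 of 9 above 0) and -0.03 for antigen presentation (2 of 5 above 0). The lean was absent without female library 2, where the median of all members was -0.02. Leaving out any other library kept it above 0, at 0.04 to 0.18, the highest being without female library 5. The members vary together across libraries, so their signs are not separate observations. Macrophage markers leaned the same way, with 16 of 16 tested above 0 and 0 called, and their part in the signs was not tested.

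**Figure D2:**
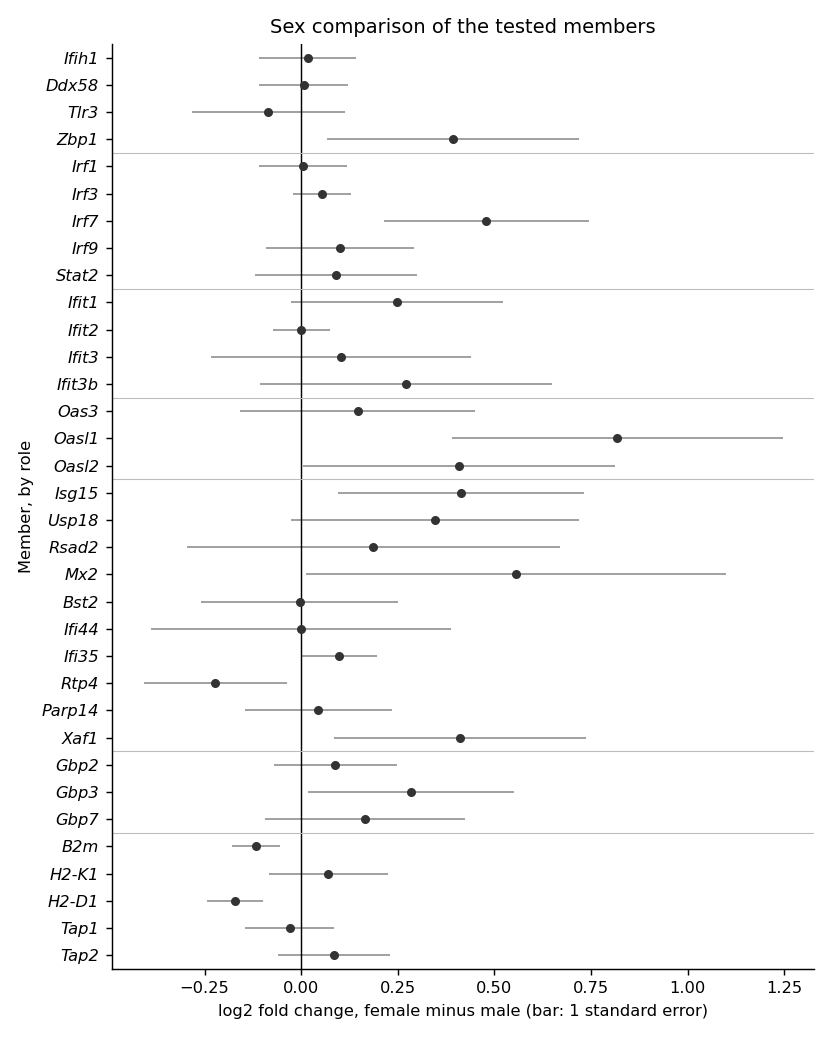
Log2 fold change, female minus male, of the 34 tested members by role, with bars of 1 standard error. The points run from -0.22 for Rtp4, whose reads lie mostly in introns, to 0.82 for Oasl1. Most induced genes lie right of 0 with wide bars, while B2m and H2-D1 lie left of it.

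The spread between libraries of a sex was widest in induced genes, narrower in sensing and signalling genes and narrowest in antigen presentation, as a description with no test. Spread was taken as the SD of log2 CPM after the mean of each sex was removed. The median SD was 0.538 for induced genes, 0.344 for sensing and signalling genes and 0.186 for antigen presentation, against 0.179 for all tested genes. The largest were those of Mx2 (1.10), Ifi44 (0.766), Rsad2 (0.752), Oasl2 (0.737) and Usp18 (0.722). B2m (0.0979), Irf3 (0.108), Ifit2 (0.111) and H2-D1 (0.118) had the smallest. Ifit2, an induced gene, thus had a spread close to that of Irf3.

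The groups also differed in depth, and low counts carry more counting noise. The median member had 55.6 reads per library among induced genes, 360 among sensing and signalling genes and 521 among antigen presentation genes, against 473 for all tested genes. The biological coefficient of variation, for which edgeR allows for the counts, kept the same order at 0.306, 0.204 and 0.130, against 0.124 for all tested genes. For each gene edgeR moderates this value toward genes of similar abundance, so the order does not separate group from depth.

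Members were positively correlated across libraries to a moderate degree. Over the 561 pairs of tested members, with the mean of each sex removed, the median Pearson r over 10 libraries was 0.47, with 89.1% of pairs above 0 and 46.9% above 0.5. Over all 137804901 pairs of tested genes the median was 0.00, 50.0% were above 0 and 11.8% above 0.5. These pairs share libraries and are given as a description with no p. The median r was 0.51 within induced genes, 0.47 between induced genes and sensing and signalling genes, 0.44 between induced and antigen presentation genes, and 0.32 within sensing and signalling. It was 0.66 over the 10 pairs within antigen presentation. Leaving out 1 library at a time kept the median over all pairs between 0.385 (without female library 2) and 0.537 (without male library 5).

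Within sensing and signalling, genes differed in how they followed the induced genes. Stat2 had a median r of 0.74 with the induced genes, Ddx58 0.71, Ifih1 0.69, Irf9 0.68 and Irf7 0.61. Irf3 was at -0.14, Zbp1 at 0.16, Irf1 at 0.25 and Tlr3 at 0.31. Among induced genes the highest were Ifit3 at 0.76 and Ifit1 at 0.71, and the lowest were Oas3 at 0.14 and Gbp2 at 0.16. B2m, despite its even level, was at 0.56, and Tap1 was at 0.20. Counting noise can lower r in members with few reads. Zbp1 had 7 to 21 reads per library, and Oas3 had 14 to 32, 89.6% of them in introns. Irf3 had 617 to 965 reads per library.

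**Figure D3:**
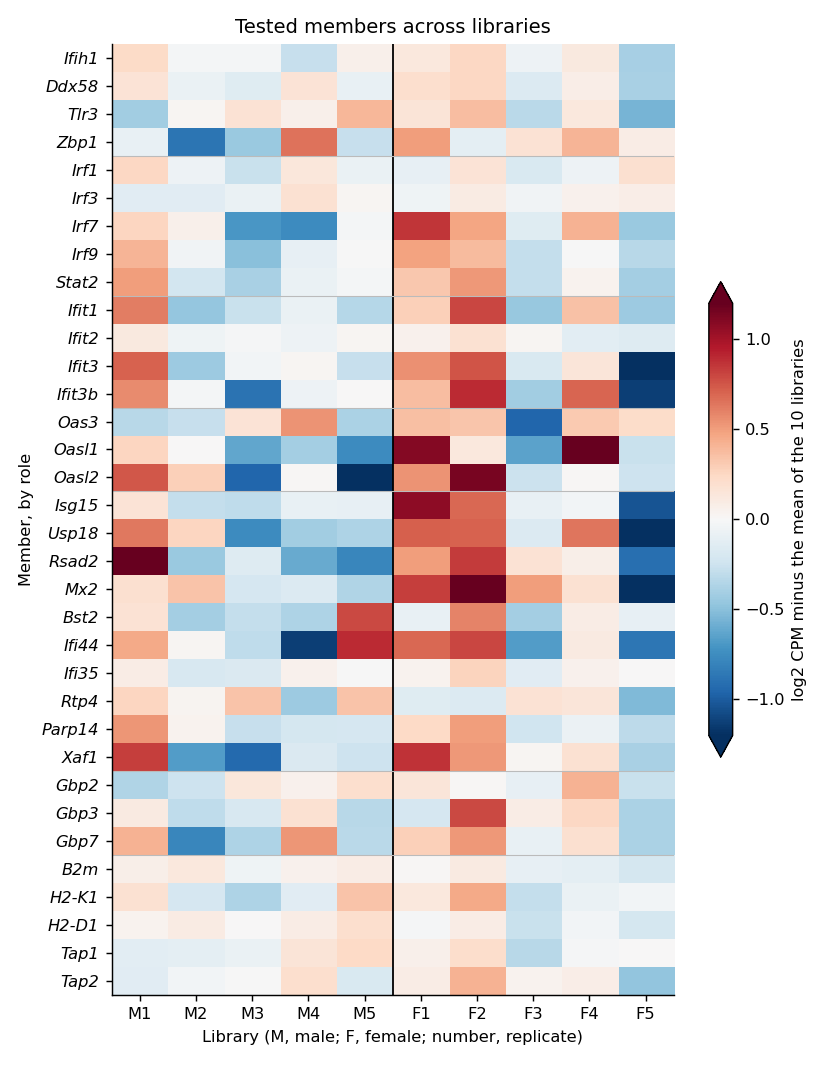
Log2 CPM of the 34 tested members minus their mean over the 10 libraries, with members in rows by role and libraries in columns (M, male; F, female). Columns M1, F1, F2 and F4 are mostly red, with 27, 28, 32 and 25 members above their mean, and columns M2, M3, F3 and F5 are mostly blue, with 11, 5, 8 and 6 above; M4 and M5 have 16 and 13.

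Library by library, the same samples often stood at the ends. Male library 1 was the highest male for 17 of the 34 tested members (50.0%, against 23.6% of all tested genes), and female library 2 was the highest female for 23 (67.6%, against 22.4%). Female library 5 was the lowest female for 22 (64.7%, against 24.4%), and male library 3 the lowest male for 12 (35.3%, against 17.4%). Relative to their mean over 10 libraries, the induced genes had a median log2 CPM of 0.65 in female library 2, 0.37 in female library 1 and 0.33 in male library 1, and of -0.39 in female library 5 and -0.27 in male library 3. Male libraries 5 and 2 were close to male library 3 in the induced genes, at -0.26 and -0.22. For all tested genes this median was between -0.01 and 0.01 in every library.

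Markers of other cells were set beside these values. Among the females, macrophage markers ran against the members at both ends: their sum was lowest in female library 2 (63.2 CPM), where members were highest, and highest in female library 5 (148.8 CPM), where members were lowest. Among the males they did not: male library 3, where members were lowest, also had a low sum (74.8 CPM, against 72.9 to 107.9 CPM over the males). Epithelial markers had their lowest sums in the 3 libraries where members were highest, at 63.1 CPM in male library 1, 64.5 CPM in female library 2 and 67.5 CPM in female library 1, against 81.0 to 123.7 CPM in the other 7. The endothelial sum was highest in female library 5 (161.6 CPM), against 91.2 to 122.9 CPM in the others. Fibroblast markers ran with the members in part: their sum was highest in female library 2 (29793 CPM) and lowest in female library 3 (22466 CPM), and their median log2 CPM relative to the mean was 0.35 and -0.21 there. The part of any of these markers in the shared movement was not tested.

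**Figure D4:**
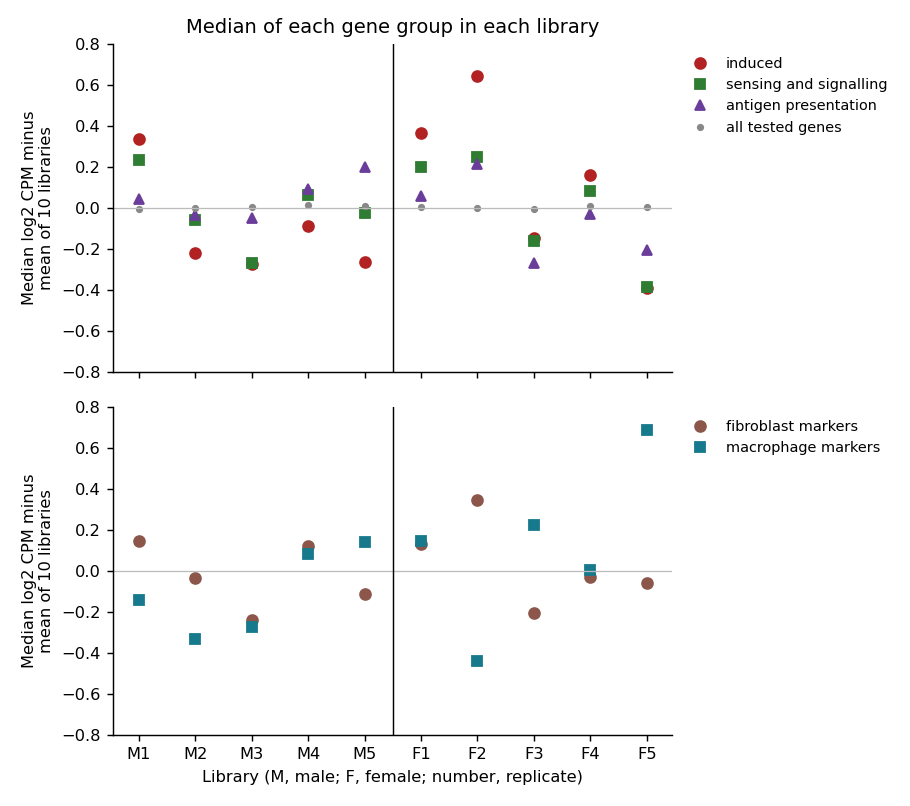
Median log2 CPM, relative to the mean of 10 libraries, of each group of members and of all tested genes (upper panel) and of fibroblast and macrophage markers (lower panel) in each library. Induced genes reach 0.65 in F2 and -0.39 in F5, while macrophage markers stand at -0.44 in F2 and 0.69 in F5.

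Irf7 served as a reference for this movement, because it is both a factor of the response and a product of it. Its log2 CPM was compared with that of each of the 33 other tested members over the 10 libraries. The median Pearson r was 0.55 and 32 of 33 were above 0, against a median of 0.00 and 50.1% above 0 for all 16601 other tested genes. By a two-sided permutation test, 10 members (30.3%) had an unadjusted p under 0.05, against 7.1% of all genes. The permutation shuffles all 10 libraries freely, so it ignores sex and replicate number. After Benjamini-Hochberg adjustment over all genes 0 members passed, as did 0% of all genes, and the lowest adjusted p of a member was 0.683. With Spearman's rho, 13 members had an unadjusted p under 0.05 and 0 passed the adjustment. The 7.1% holds for Pearson's r only, and without a share of all genes for rho the 13 cannot be judged. With the mean of each sex removed first, 15 members (45.5%) had an unadjusted permutation p of r under 0.05, against 11.1% of all genes. Again 0 members passed the adjustment in that setting.

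By unique reads, Usp18 followed Irf7 most closely among the members, with r = 0.86 (permutation p = 0.00175) and rho = 0.94 (permutation p = 0.000260). The r of Usp18 ranked 16 of 16601. Only 38.6% of the reads of Usp18 were unique, and with total gene reads the largest r of any member was 0.83. Irf9 had r = 0.83 (permutation p = 0.00345) and rho = 0.84 (permutation p = 0.00354). For Stat2, r was 0.74 (permutation p = 0.0152) and rho 0.78 (permutation p = 0.0103). Irf3 went the other way without passing, at r = -0.27 (permutation p = 0.450) and rho = -0.20 (permutation p = 0.584). Adjusted over all genes, the permutation p of r was 0.683 for Usp18, Irf9 and Stat2 and 0.881 for Irf3. Without the 2 libraries farthest from the median of Irf7, female 1 and male 4, r was 0.91 for Usp18, 0.88 for Irf9, 0.82 for Stat2 and 0.17 for Irf3. With both the sex and the replicate number removed, r was 0.94 for Usp18, 0.58 for Irf9, 0.38 for Stat2 and -0.48 for Irf3, and the median over the 33 members was 0.38. That removal makes same-numbered male and female libraries mirror each other. Each such r therefore rests on 5 pair differences and is not comparable with the values above.

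**Figure D5:**
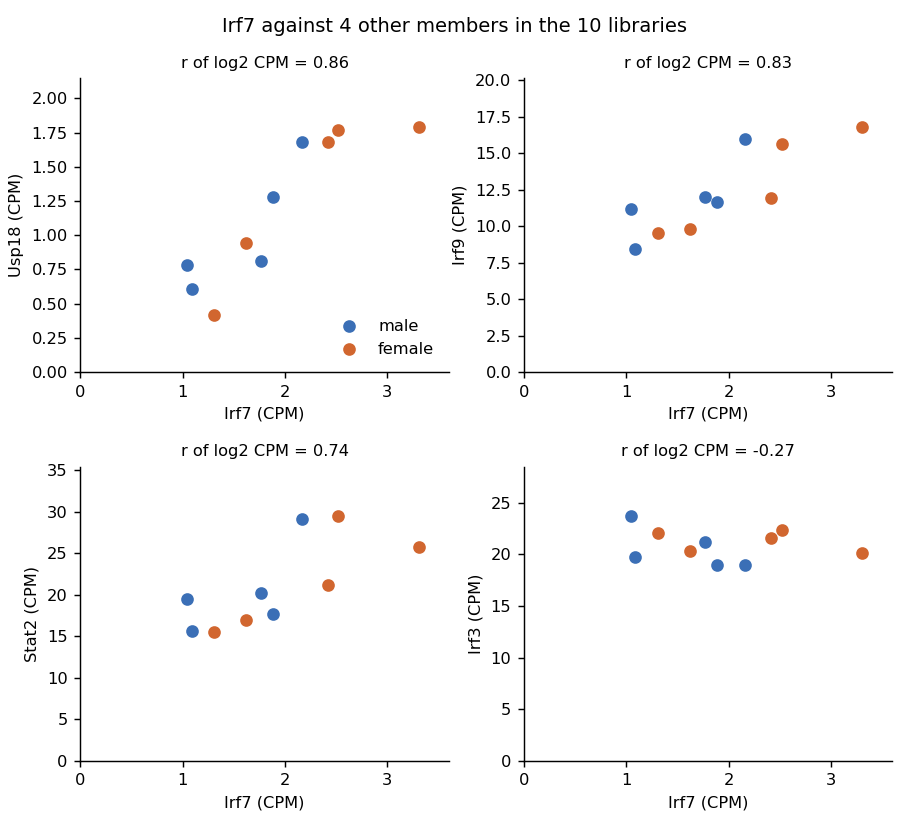
CPM of Usp18, Irf9, Stat2 and Irf3 against CPM of Irf7, with 1 point for each of the 5 male and 5 female libraries, linear axes from 0 and the Pearson r of the log2 values above each panel. Usp18, Irf9 and Stat2 are higher where Irf7 is higher, and Irf3 is nearly level.

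Of 84 further genes of the pathway, in 5 lists, 61 were tested and 0 were called (35 had a log2 fold change above 0 and 26 below). Interferon genes themselves had almost no unique reads. Of 10 ligands listed, 8 had no unique read in any library. Ifne and Ifnl2 had 3 reads between them in 378890368 unique gene reads. A count of 0 allows up to 0.00792 CPM over all libraries, counting error only. Reads shared between similar genes are left out of these counts, so silence of the ligands is not shown. All 10 receptor and JAK-STAT genes were tested with 0 called, led by Jak1 at 44.2 ± 1.96 RPKM and Ifngr2 at 30.9 ± 1.35 RPKM. Their median SD of log2 CPM was 0.112, below that of all tested genes. All 14 further sensing and adaptor genes were tested with 0 called, led by Tmem173, which encodes STING, at 16.7 ± 1.18 RPKM and Trim25, a ligase acting with RIG-I, at 10.3 ± 1.30 RPKM. Of 36 further induced genes 24 were tested, with 17 above 0, 7 below and 0 called. The membrane proteins Ifitm3 at 118.6 ± 12.5 RPKM and Ifitm2 at 41.5 ± 4.65 RPKM led the list, but its median was only 0.341 RPKM. Of 14 further antigen presentation genes 13 were tested, with 5 above 0, 8 below and 0 called. The chaperone Calr at 545.8 ± 35.4 RPKM and the disulfide isomerase Pdia3 at 321.2 ± 19.1 RPKM led it, and the median was 2.58 RPKM.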

How the data were processed

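The authors deposited whole-number read counts per gene and library, not normalized, per the file headers, on mm10 per the submitters' processing notes. The aligner is not given in the sources used here, and neither are the counting rules. A further 100 columns with values of single libraries were left unused. The authors' deposited p-value and false discovery rate, and their signed fold, a score, come from their own test of the sexes. Unique gene reads were tested with edgeR 4.0.16 in R 4.3.3 (filterByExpr with minimum count 10, TMM, robust quasi-likelihood fit, two-sided). CPM use TMM scaling, RPKM do not, and log2 CPM use a prior count of 2. DESeq2 1.42.0 was an alternative, and permutations (100000) used Python 3.11. The counts test was tested on simulated data.

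Members and gene lists were chosen with earlier results of these data known, so no list was tested and Irf7 relations were adjusted over all genes. The number that pass depends on this choice: over the members alone some values of Spearman's rho would pass, and they are not given for that reason. Values in every library are printed for the members of each role with the highest level, smallest p or largest spread, and for Irf7. Some other values were chosen for printing after they were seen.

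Same-numbered male and female libraries deviated together over the 5000 most abundant genes in all 5 pairs (r 0.147 to 0.547), and 7 of 10 libraries correlated best with their own number. The pairing comes from these data, not from the labels.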

Additional observations from a re-analysis of the deposited data

Results flagged for a closer look

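In each sex, the highest or lowest library of each member was set against the other 4 by Dixon's ratio at the 95% level, in 74 groups of 5 libraries. Chance flags about 1 in 20 groups, or 3.7 of 74, and 3 were found. Ifit1 was at 2.70 CPM in male library 1, against 1.25 to 1.65 CPM in the other males. Rsad2, which encodes the antiviral enzyme viperin, was at 0.797 CPM in the same library, against 0.147 to 0.256 CPM in the others. Oas3 was at 0.295 CPM in female library 3, against 0.734 to 0.813 CPM in the other females, from 14 reads.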

How the results depend on the processing

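No member was called in any of 18 other fits (10 leaving out 1 library, 8 other settings), and the lowest adjusted p of a member was 0.339 with edgeR and 0.723 with DESeq2. With the replicate number as a block, 43 of all tested genes were called instead of 15, and 0 members. No filter gave 30 and DESeq2 72, and leaving out 1 library gave 12 to 36 (36 without male library 1). Leaving out 1 library moved the members' median log2 fold change between -0.0170 and 0.183. Log2 fold changes close to 0 changed sign: Ddx58 to -0.00386 with the block; Ifit2 to -0.00578 with upper quartile factors, -0.00351 with the stricter filter, -0.00346 with the block and -0.00147 with total reads; Bst2 to 0.0337 with the block, 0.0204 with exon reads and 0.000986 with DESeq2. Leaving out 1 library gave -0.0619 to 0.0922 for Ddx58, -0.0528 to 0.0383 for Ifit2, -0.183 to 0.265 for Bst2, -0.0174 to 0.161 for Gbp2 and -0.0525 to 0.175 for H2-K1. The median r with Irf7 was 0.38 under the block, where each r rests on 5 pair differences. After adjustment over all genes, 0 relations passed in any of 5 settings (lowest adjusted permutation p 0.160 to 0.719).

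For joint variation the alternatives were added after the data were seen. With members of at least 100 reads in every library the median r was 0.528 over 105 pairs, 0.567 within induced genes, 0.578 for induced with sensing and signalling genes and 0.564 for induced with antigen presentation genes. Under the block, where each r rests on 5 pair differences, it was 0.539 over all pairs and 0.586 for induced with antigen presentation genes. Leaving out 1 library gave 0.385 to 0.537 over all pairs, 0.436 to 0.573 within induced genes, 0.403 to 0.507 with sensing and signalling genes and 0.285 to 0.560 with antigen presentation genes. The cause was not tested in any of these. Depth limits the induced genes most, at a median of 55.6 reads per library.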
